A study of Mus musculus with 18 samples.

Results

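The genes described here were 8 antioxidant genes that the transcription factor NRF2 is known to drive (Hmox1, Nqo1, Gclc, Gclm, Srxn1, Txnrd1, Slc7a11 and Gsr) and the metallothioneins Mt1 and Mt2. They were chosen by symbol, 10 of the 54347 genes in the count table, and each was read in all 18 RNA-seq libraries. The cells were primary marrow-derived mesenchymal stem cells (MSC) of male C57BL/6J mice, expanded as a line from pooled animals. A first set of 9 libraries held untreated control cells, cells given CK666, an inhibitor of the actin-branching Arp2/3 complex, and cells given cytochalasin D (CytoD), which blocks actin polymerization. A second set of 9 held cells transfected with a control siRNA (siControl), with an siRNA against Arp4 (siArp4), or with the Arp4 siRNA followed by CK666 (siArp4+CK666). Arp4 is the nuclear actin-related protein encoded by Actl6a. Each of the 6 groups had 3 libraries from distinct cell preparations, drugs were given for a day in the first set, and cells carrying siControl together with CK666 were not analysed here.

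NRF2, the product of Nfe2l2, is held in the cytoplasm by KEAP1 and destroyed there until oxidants or electrophiles modify KEAP1, after which it enters the nucleus and activates genes through antioxidant response elements. Its targets make glutathione and thioredoxin, recycle them, import cystine for glutathione, and break down haem and quinones. Metallothioneins are small cysteine-rich proteins that bind zinc and copper, and their transcription is driven by the metal-sensing factor MTF1 through metal response elements, with further input from glucocorticoids and stress pathways.

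RefSeq promoter windows on GRCm38.p6, reaching from 250 bases before a start site to 50 after it, were at hand for 7 of the 10 genes (9 windows). Those of Mt2, Mt1, Srxn1 and Slc7a11 are shown because these genes differ in which treatment moved them. The 250 bases before the start are printed 5′ to 3′. Capitals mark TGCACNC or TGCGCNC, the metal response element core, in Mt2 and Mt1, and TGAGTCA, the AP-1 sequence, in Srxn1. In Slc7a11 capitals mark TGATGNAA, the letters of the C/EBP-ATF element.
Mt2 promoter, chr8:94172368-94172617, plus strand: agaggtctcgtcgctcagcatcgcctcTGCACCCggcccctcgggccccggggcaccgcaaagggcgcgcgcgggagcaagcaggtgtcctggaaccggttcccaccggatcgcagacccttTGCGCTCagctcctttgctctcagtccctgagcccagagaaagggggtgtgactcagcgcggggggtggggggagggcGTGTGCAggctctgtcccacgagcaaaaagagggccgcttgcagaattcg
Mt1 promoter, chr8:94178839-94179088, plus strand: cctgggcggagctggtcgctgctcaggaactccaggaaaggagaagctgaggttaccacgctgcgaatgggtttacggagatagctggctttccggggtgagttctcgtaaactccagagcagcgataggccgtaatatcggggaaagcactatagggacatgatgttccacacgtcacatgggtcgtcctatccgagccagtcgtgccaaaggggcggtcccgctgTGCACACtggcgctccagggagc
Srxn1 promoter, chr2:152105274-152105523, plus strand: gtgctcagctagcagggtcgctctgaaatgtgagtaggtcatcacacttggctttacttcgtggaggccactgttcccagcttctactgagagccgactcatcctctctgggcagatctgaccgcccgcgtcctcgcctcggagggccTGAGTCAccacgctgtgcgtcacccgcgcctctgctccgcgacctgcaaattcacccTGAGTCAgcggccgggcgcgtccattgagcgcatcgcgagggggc
Slc7a11 promoter, chr3:50443614-50443863, minus strand: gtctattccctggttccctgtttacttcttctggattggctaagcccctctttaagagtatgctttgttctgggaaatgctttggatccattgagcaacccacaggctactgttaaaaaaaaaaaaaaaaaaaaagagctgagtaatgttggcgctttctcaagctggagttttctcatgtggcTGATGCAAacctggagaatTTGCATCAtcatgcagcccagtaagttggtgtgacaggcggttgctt
Both strands were searched over the whole 300-base windows, and a match is a description of letters only. The Mt2 window held 4 matches to the metal letters, first bases at positions -223, -128, -50 and 5 from the start site, and the Mt1 window held 3, at -23, 3 and 21. The Gclm window also held 3, at -138, -72 and 28, and that of Srxn1 held 1, at -19. At least 1 such match was present in 25.7% of all 32851 windows. The antioxidant response element core TGACNNNGC was present in 12.4% of windows. It matched once in Mt2, at -79, where it overlapped a TGAGTCA on the other strand, once in Srxn1 at position 29, once in Gclm at -134 and once in 1 of the 3 Txnrd1 windows. Srxn1 also held TGAGTCA at -102 and -45, letters found in 5.2% of windows. Slc7a11 held TGATGNAA at -66 and -47 on opposite strands, against 3.97% of windows with any match. No match to any of the 4 motifs lay in the Nqo1 window.

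Library totals ran from 18075610 to 24733212 estimated counts. Mitochondrial transcripts made up 1.43 to 1.82% of counts in control, 1.36 to 1.88% in CK666 and 1.78 to 1.89% in CytoD. Their share was 1.30 to 2.65% in siControl, 2.67 to 3.26% in siArp4 and 2.86 to 3.36% in siArp4+CK666, and its part in the results was not tested. Actl6a, the knockdown target, was at 720 to 1127 normalized counts in the siControl libraries, 19.0 to 57.2 in siArp4 and 9.52 to 22.9 in siArp4+CK666. Stromal transcripts such as Col1a1, Col1a2, Vim and Pdgfrb were abundant, although Thy1, a usual MSC marker, was listed at 0 in all 18 libraries. Of the same list, Nt5e had a mean count of 1.72 and was at 0 in 5 libraries, and Eng had a mean count of 33.4. The 10 stromal markers summed to a CPM of 6478 to 18270, highest in control and lowest in siArp4+CK666. The 10 macrophage and blood markers summed to a CPM of 7.46 to 19.7, and of their members Ptprc was at 0 in 17 libraries and Aif1 in 18, while Cd68, Csf1r, Lyz2 and Cd14 were above 0 in all 18 at mean counts of 43.1 to 86.2. That sum was 18.4 to 19.7 in CytoD against 10.9 to 13.9 in control. It was 18.5 in siArp4+CK666 replicate 3, where only 1 of these markers was at 0, against 7.46 and 8.16 in the other libraries of that group. The part of such transcripts in the results was not tested, and without that library the same number of the 10 genes, 8, was called in siArp4+CK666 against siArp4. Libraries also differed in how genes of different length were represented. Relative to the control mean, the median log2 difference of genes shorter than 1000 bp exceeded that of genes of 5000 bp or more by -0.05 to 0.05 in control, 0.86 in CK666 replicate 1, -0.19 and 0.06 in the other CK666 libraries, and 0.18 to 0.34 in CytoD. It was 0.62, 2.59 and 1.59 in siControl replicates 1, 2 and 3, 0.88 to 1.31 in siArp4 and 0.41 to 1.47 in siArp4+CK666. Mt2 (588 bp of exon) and Mt1 (1246 bp) were the shortest genes here and Slc7a11 (13922 bp) the longest, so values from siControl replicate 2 are given beside the results that rest on them. Lengths are the union of all annotated exons. For Mt1 this union covers the whole gene, so its spliced transcript may be shorter. In bulk RNA a change per cell and a change in the share of cells expressing a gene cannot be told apart.

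**Figure D1:**
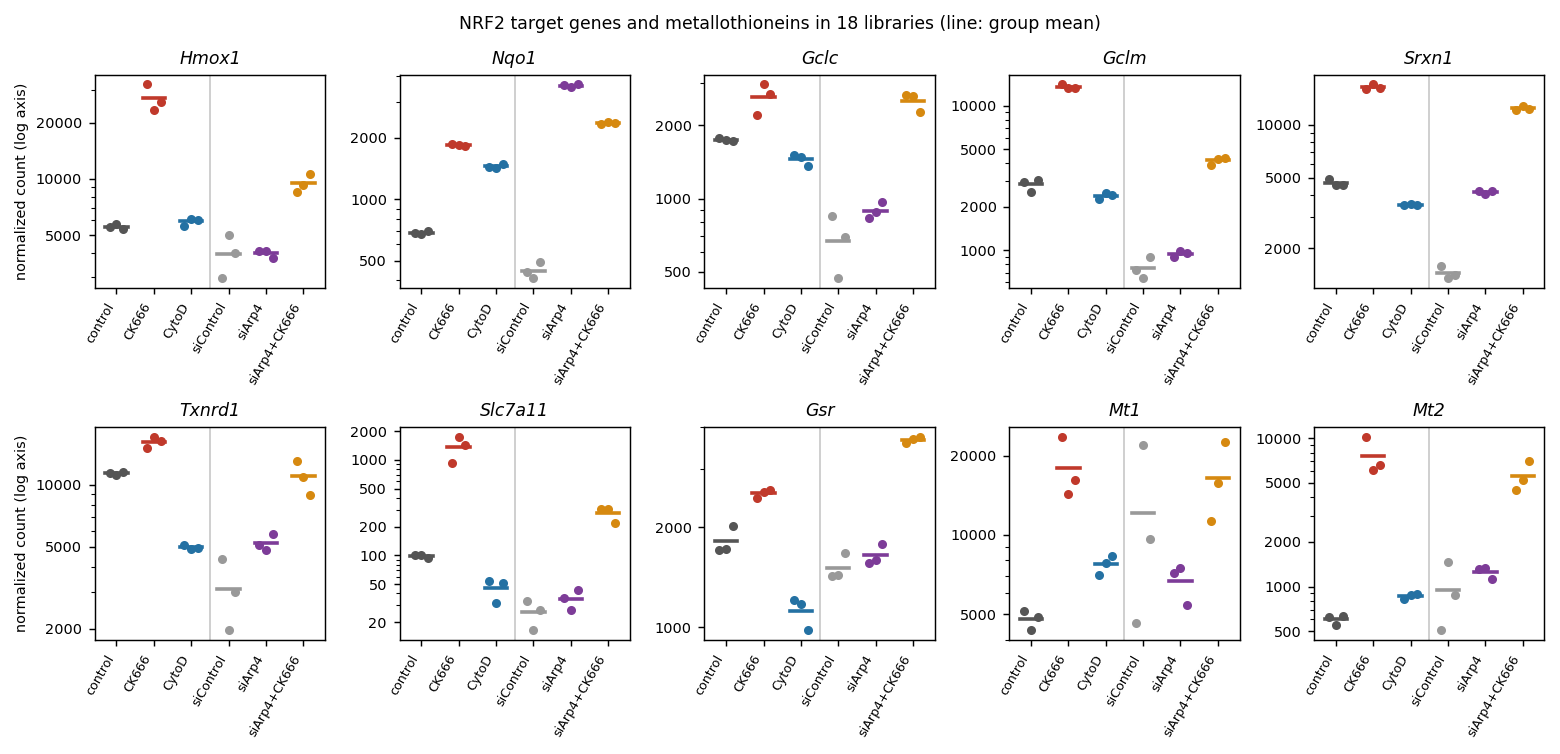
Normalized counts of the 10 genes in each library, scaled within each set of 9, on log axes, with the 3 replicates of a group from left to right and a line at the group mean; the vertical grey line separates untransfected from transfected cells. CK666 libraries lie above control for all 10 genes, and Nqo1 is highest in siArp4.

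CK666 was followed by higher transcript levels of every gene in the group when compared with untreated control. All 10 passed the independent filter and had an adjusted p below 0.01, and 7 of them also exceeded the minimum of 1 in absolute log2 fold change used to call a gene. Across all 14597 genes tested 4.89% were called higher and 6.06% lower, and 15.3% were higher by adjusted p alone. The median log2 fold change of the 10 genes was 1.86, beside 0.01 over all genes. No gene of the 10 had overlapping CK666 and control libraries, a property shared by 47.5% of genes tested.

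Slc7a11 (chr3:49892526-50443614), the cystine antiporter that supplies cysteine for glutathione, and Mt2 had the largest log2 changes, and without CK666 replicate 2 their order turned (3.59 and 3.81). Slc7a11 was at 101, 101 and 93.1 normalized counts in control and 930, 1760 and 1431 in CK666. All CK666 libraries were well above control but they spread widely among themselves, and the rise was 14.0-fold (log2 3.80 ± 0.25, SE, adjusted p = 2.52e-50). Gclm (chr3:122245557-122270732), the modifier subunit of glutamate-cysteine ligase, stood at 2989, 2548 and 3069 in control and at 14106, 13330 and 13232 in CK666. This was a 4.73-fold rise (log2 2.24 ± 0.10, adjusted p = 2.26e-110). Gclc (chr9:77754535-77794485), the catalytic subunit of the same enzyme, had 1778, 1741 and 1720 counts in control and 2206, 2953 and 2703 in CK666. The groups were apart, but the 1.50-fold difference (log2 0.59 ± 0.12, adjusted p = 1.48e-05) lay under the minimum. The count ratio of Gclc to Gclm was accordingly 0.56 to 0.68 in control libraries and 0.16 to 0.22 in CK666 libraries. Gsr (chr8:33652523-33698163), glutathione reductase, was 1.39-fold higher (log2 0.48 ± 0.12, adjusted p = 0.000264), also under the minimum. Exons of Gclm share 296 bp with Gm17494 on the opposite strand (mean 85.2 counts, against 4168 for Gclm), and the unstranded reads could not be told apart there.

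Hmox1 (chr8:75093621-75100589), the haem oxygenase that breaks haem into biliverdin, iron and carbon monoxide, was at 5495, 5706 and 5400 normalized counts in control and 32054, 23286 and 25854 in CK666. The 4.89-fold rise (log2 2.29 ± 0.13, adjusted p = 2.72e-72) exceeded the spread in either group. Srxn1 (chr2:152105516-152111376), sulfiredoxin, which repairs over-oxidized peroxiredoxins, went from 4923, 4540 and 4574 to 15874, 16910 and 16199. The change was 3.49-fold (log2 1.80 ± 0.07, adjusted p = 2.49e-131) and was tight within both groups. Nqo1 (chr8:107388225-107403206), the quinone reductase, had 681, 673 and 700 counts in control and 1859, 1850 and 1830 in CK666, a 2.70-fold rise (log2 1.43 ± 0.08, adjusted p = 1.17e-63). Txnrd1 (chr10:82833951-82897712), cytosolic thioredoxin reductase, was already abundant at 11212 to 11558 in control. It reached 15126 to 17206 with CK666, and the 1.42-fold difference (log2 0.51 ± 0.08, adjusted p = 7.59e-10) was under the minimum.

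The metallothioneins lie 5513 bases apart on the same strand of chromosome 8. Mt1 (chr8:94179082-94180327) was at 5138, 4339 and 4877 in control and 23628, 14265 and 16164 in CK666. Mt2 (chr8:94172664-94173568) was at 626, 552 and 631 in control and 10276, 6106 and 6569 in CK666. The Mt1 rise was 3.77-fold (log2 1.91 ± 0.18, adjusted p = 1.99e-25) and the Mt2 rise 12.7-fold (log2 3.67 ± 0.19, adjusted p = 7.66e-84). CK666 replicate 1, the library richer in short genes, was the highest for both and for Hmox1, Nqo1 and Gclm, and the lowest of its group for Slc7a11, Gclc, Txnrd1, Gsr and Srxn1. Without it the same count of 7 genes was called, with Mt1 at 1.67, Mt2 at 3.40, Hmox1 at 2.15 and Slc7a11 at 4.02 on the log2 scale. Exons of Mt2 overlap the antisense Gm45774 by 432 bp, whose mean count was 9.26 against 2827 for Mt2.

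Because the genes differ in length, levels were compared per kilobase of exon. The Mt1 values may be too low, since its exon union covers the whole gene. In control cells Mt1 (3840 ± 327, SD, n = 3) and Hmox1 (3160 ± 89.5) were highest, followed by Srxn1 (1659 ± 75.1), Txnrd1 (1608 ± 24.5), Mt2 (1026 ± 75.2) and Gsr (659.5 ± 63.8). Gclc (464 ± 7.78), Gclm (456 ± 44.6) and Nqo1 (441 ± 8.81) came next, and Slc7a11 was last at 7.06 ± 0.32. The Srxn1 and Txnrd1 libraries overlapped, and the range of Gclm took in those of Gclc and Nqo1, so these neighbours could not be ordered. With CK666 the leading genes per kilobase were Hmox1 (15457 ± 2574), Mt1 (14462 ± 3972) and Mt2 (13011 ± 3887), which overlapped one another, and Slc7a11 (98.7 ± 30.0) was still last.

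**Figure D2:**
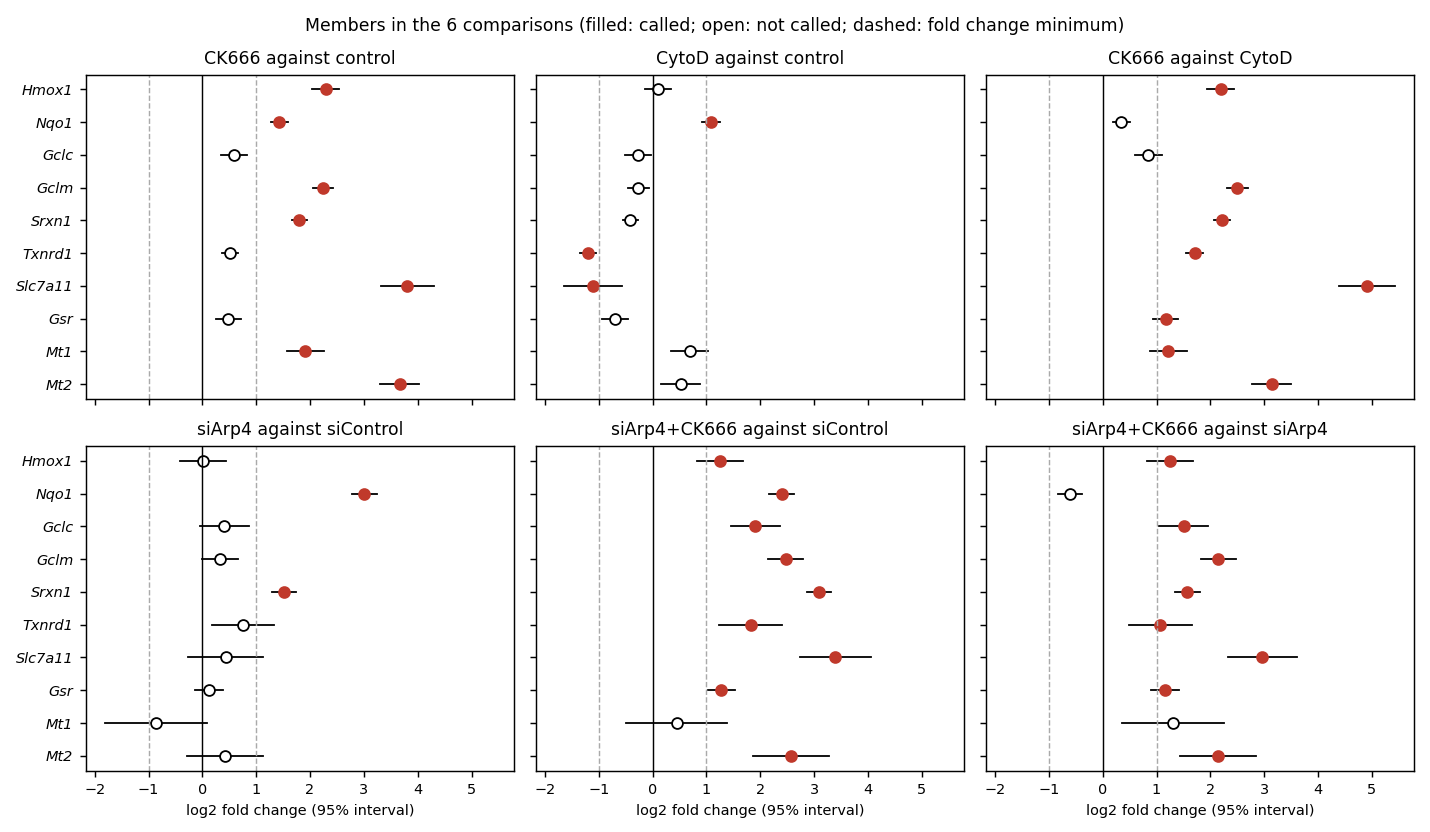
Log2 fold change of each gene with its 95% interval in the 6 comparisons; filled points were called, open points were not, and dashed lines mark the fold change minimum. Against control, 7 of 10 genes were called higher with CK666, while with CytoD Nqo1 was called higher and Txnrd1 and Slc7a11 lower.

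CytoD did not shift the genes in a common direction. Of the 10, Nqo1 was called higher, and Txnrd1 and Slc7a11 were called lower, against 4.8% of 13717 genes called higher and 4.32% called lower. The median of the group was -0.26, beside 0.01 over all genes. Nqo1 was at 1433, 1423 and 1494 normalized counts with CytoD, 2.12-fold above control with no overlap (log2 1.08 ± 0.08, adjusted p = 9.65e-36). The call was lost (log2 0.97) when the median change of the 500 genes nearest in length was taken off. Txnrd1 fell to 5078, 4883 and 4960, which was 2.29-fold lower (log2 -1.20 ± 0.08, adjusted p = 9.72e-50). Slc7a11 fell to 54.2, 31.9 and 51.5, 2.15-fold lower (log2 -1.10 ± 0.28, adjusted p = 0.000362). At such low counts the Slc7a11 call rested on CytoD replicate 2, without which the change was -0.90 with an adjusted p of 0.0121.

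Among the remaining genes under CytoD, Srxn1 (log2 -0.41), Gsr (-0.70) and Mt1 (0.69) had adjusted p below 0.01 without reaching the minimum. Mt1 was at 7025, 7814 and 8331, above every control library, with an adjusted p of 0.000499. Hmox1 was at 5606, 6126 and 6045, overlapping control, and its log2 difference of 0.10 had a 95% interval of -0.15 to 0.34. For Gclc (-0.26), Gclm (-0.26) and Mt2 (0.52) the adjusted p-values were 0.0799, 0.0260 and 0.0170. Set directly against CytoD, CK666 cells had 8 of the 10 genes called higher, where 5.08% of 15038 genes were called higher and 6.74% lower. Slc7a11 differed by 30.0-fold (log2 4.91 ± 0.27) and Mt2 by 8.83-fold (log2 3.14 ± 0.19). Nqo1 differed least, at log2 0.35 ± 0.08, and Gclc by 0.85 ± 0.12, both with adjusted p below 0.01 and both under the minimum. Mt1 (log2 1.22) dropped out of the calls at 0.98 without CK666 replicate 1. This comparison uses the same CK666 and CytoD libraries as the comparisons with control.

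Knockdown of Arp4 was accompanied by a change in few of the genes. Against siControl, Nqo1 and Srxn1 were called higher and no gene lower, while 6.69% of 15415 genes were called higher and 9.49% lower. The median was 0.41, beside -0.05 over all genes. Nqo1 rose from 442, 410 and 489 normalized counts in siControl to 3631, 3529 and 3661 in siArp4. This 8.06-fold rise (log2 3.01 ± 0.12, adjusted p = 1.57e-134) made siArp4 the group with the most Nqo1 RNA. Srxn1 rose from 1589, 1352 and 1411 to 4218, 4058 and 4199, which was 2.86-fold (log2 1.52 ± 0.12, adjusted p = 8.90e-37). Neither gene overlapped between the groups, as was true of 43.5% of genes tested.

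The other 8 genes were not called after knockdown. Hmox1 was at 2939, 4979 and 3994 in siControl and 4109, 4109 and 3753 in siArp4, with a log2 difference of 0.01 and a 95% interval of -0.42 to 0.44. Txnrd1 had a log2 difference of 0.75 ± 0.30 (adjusted p = 0.0358), Gclc 0.41, Gclm 0.33, Slc7a11 0.43 and Gsr 0.12. Without siControl replicate 2, Txnrd1 was 0.50, Gclc 0.20, Gclm 0.21 and Slc7a11 0.21. Without siControl replicate 1, Gclc was 0.61 and Slc7a11 0.67. Mt1 was at 4650, 21994 and 9691 in siControl and 7139, 7467 and 5441 in siArp4, so the siControl libraries took in all of siArp4. The Mt1 log2 difference was -0.86 ± 0.48 (adjusted p = 0.162), and it was -0.11 without siControl replicate 2, the library in which short genes were most over-represented, and -1.25 without siControl replicate 1. Leaving out siControl replicate 1 also brought Txnrd1 past the threshold at 1.07, so that 4 genes were then called in place of 2. Mt2 was at 505, 1457 and 872 against 1323, 1330 and 1116, overlapping, with a log2 difference of 0.41 ± 0.36. The Mt2 difference was 0.86 without siControl replicate 2 and 0.11 without siControl replicate 1.

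Adding CK666 to siArp4 cells raised 8 of the 10 genes against siArp4 alone, where 1.63% of 14098 genes were called higher and 4.12% lower. The median of the genes was 1.40, beside 0.02 over all genes, and no gene overlapped between the groups, as for 37.8% of genes tested. Slc7a11 went from 35.4, 27.0 and 43.1 to 303, 305 and 217, 7.82-fold (log2 2.97 ± 0.32, adjusted p = 7.74e-18). Mt2 was at 4454, 5214 and 7072, 4.44-fold higher (log2 2.15 ± 0.36, adjusted p = 9.30e-08), and Gclm at 3912, 4310 and 4367, 4.44-fold higher (log2 2.15 ± 0.16, adjusted p = 2.14e-36). Both subunits of glutamate-cysteine ligase were called here, since Gclc rose from 828, 882 and 967 to 2671, 2635 and 2278 (log2 1.50 ± 0.23, adjusted p = 5.69e-09). Srxn1 reached 12104, 12767 and 12310 (log2 1.58 ± 0.11), Hmox1 8510, 9288 and 10631 (log2 1.25 ± 0.22) and Gsr 3588, 3680 and 3748 (log2 1.16 ± 0.13).

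In contrast, Nqo1 was lower with CK666 in knockdown cells. Its counts of 2343, 2380 and 2368 lay under every siArp4 library, and the log2 difference of -0.61 ± 0.11 had an adjusted p of 3.08e-06 but missed the minimum. Txnrd1 (13070, 10973 and 8959, log2 1.07 ± 0.30, adjusted p = 0.00349) was the weakest call and was lost when any siArp4 library, or siArp4+CK666 replicate 1 or 2, was left out. Mt1 (11270, 15770 and 22464) was above siArp4 in all 3 libraries, but its log2 difference of 1.30 ± 0.48 had an adjusted p of 0.0478. It was called at 1.31 without siControl replicate 1 (adjusted p = 0.000701) or replicate 2 (adjusted p = 0.000433). Those libraries enter this comparison only through the fit shared by the set. The order of those Mt1 counts was that of the over-representation of short genes in the same libraries, 0.41, 0.94 and 1.47, and the part of library make-up in the Mt1 values was not tested.

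Against siControl, siArp4+CK666 cells had 9 genes called higher, all but Mt1, where 8.06% of 15415 genes were called higher and 12.4% lower. The largest changes were in Slc7a11 (10.5-fold, log2 3.40 ± 0.34), Srxn1 (8.54-fold, log2 3.09 ± 0.12), Mt2 (5.91-fold, log2 2.56 ± 0.36) and Gclm (5.56-fold, log2 2.47 ± 0.17). Mt1 overlapped siControl (log2 0.45 ± 0.48, adjusted p = 0.496), and was called at 1.20 (adjusted p = 0.00253) without siControl replicate 2. This comparison shares its control libraries with that of siArp4 alone.

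The CK666 change was next set against itself in cells with and without the Arp4 siRNA, by an interaction term over all 18 libraries. Hmox1 (log2 -1.04 ± 0.25, adjusted p = 0.000665), Nqo1 (-2.05 ± 0.09, adjusted p = 6.41e-116) and Mt2 (-1.51 ± 0.43, adjusted p = 0.00642) had a lower log2 change with CK666 in siArp4 cells than in untransfected cells, a direction in which 2.52% of 13511 genes were called, with 1.9% in the other. The Nqo1 difference stayed between -2.06 and -2.03 whichever library was left out. That of Hmox1 missed the minimum without CK666 replicate 1 (-0.90), without siArp4+CK666 replicate 1 (-0.97) or after taking off the change of genes of like length (-0.81). The Mt2 call was lost by edgeR, with an adjusted p of 0.0312, and when any of 9 of the 18 libraries was left out.

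Differences in the other direction were found for Gclc (0.91 ± 0.24, adjusted p = 0.00243) and Gsr (0.68 ± 0.15, adjusted p = 0.000260), whose change was higher in siArp4 cells but under the minimum. Gclc passed it at 1.01 both without CK666 replicate 2 and after taking off the change of genes of like length. For Gclm the interval of the difference was -0.41 to 0.22, for Srxn1 -0.41 to -0.06, for Slc7a11 -1.63 to -0.06, for Txnrd1 -0.02 to 1.13 and for Mt1 -1.71 to 0.50. Their adjusted p-values were 0.782, 0.0692, 0.163, 0.228 and 0.559. Transfection and knockdown both separate the pairs of groups, and their parts in these differences cannot be told apart.

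**Figure D3:**
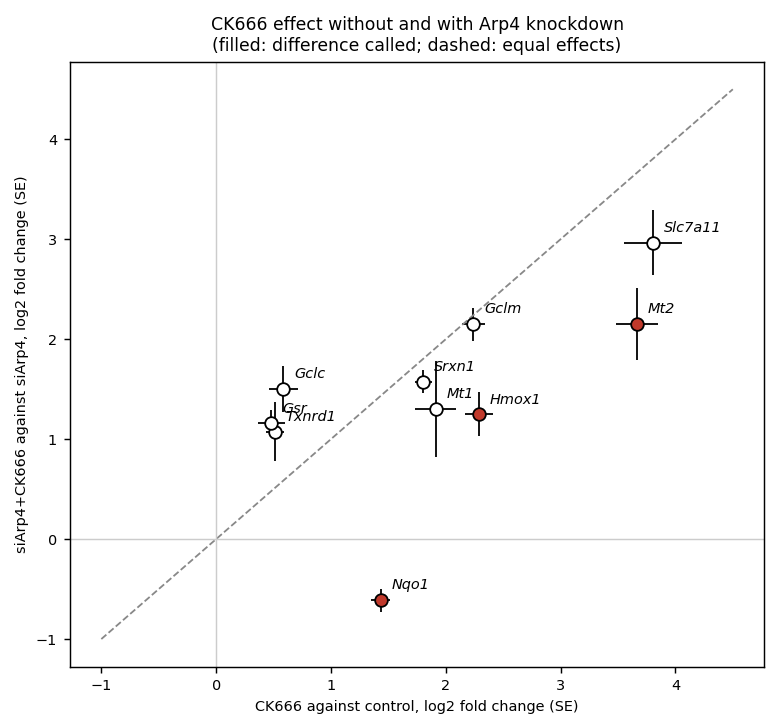
CK666 effect on each gene in untransfected cells (horizontal) and in Arp4 knockdown cells (vertical), as log2 fold changes with SE; the dashed line marks equal effects and filled points a called interaction. Nqo1 lies at 1.43 and -0.61, below the line with Hmox1 and Mt2, while Gclc, Gsr and Txnrd1 lie above it.

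The transfected controls did not start from the untransfected level. Against control, siControl cells had Gclc, Gclm, Srxn1, Txnrd1 and Slc7a11 called lower and Mt1 called higher, with 10.1% of 14491 genes called lower and 14.1% higher. Scaled over all 18 libraries, the log2 changes were -1.88 ± 0.12 for Gclm, -1.86 ± 0.32 for Slc7a11, -1.83 ± 0.21 for Txnrd1, -1.64 ± 0.07 for Srxn1 and -1.33 ± 0.17 for Gclc. After taking off the change of genes of like length these 5 genes were still past the minimum, at -1.66, -1.25, -1.51, -1.91 and -1.45. Mt1 was at 4632, 22608 and 9710 in siControl and 4984, 4230 and 4756 in control, which overlap. Its log2 change of 1.40 ± 0.40 fell to 0.62 (adjusted p = 0.0934) without siControl replicate 2. It fell to 0.52 against genes of like length, although the length used for Mt1 may be too long. Mt2, at 0.71 ± 0.31 (adjusted p = 0.0412), turned to -0.44 against genes of like length. It was called at 1.01 (adjusted p = 0.000274) without siControl replicate 1 and was 0.23 without replicate 2. Hmox1 (-0.42), Nqo1 (-0.56) and Gsr (-0.21) were not called, and the first and second of these were past -1 against genes of like length, at -1.10 and -1.34. The sets of libraries also differ in whatever else was done to them, which cannot be told apart from transfection.

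The balance of the metallothioneins shifted towards Mt2 wherever CK666 was given, and also in siArp4 cells without it. The Mt2 to Mt1 count ratio was 0.126 ± 0.004 (SD, n = 3) in control, 0.112 ± 0.005 in CytoD and 0.423 ± 0.015 in CK666. In the transfected cells it was 0.0883 ± 0.021 in siControl, 0.190 ± 0.014 in siArp4 and 0.347 ± 0.043 in siArp4+CK666. The ranges of the 6 groups overlapped only between siControl and CytoD, at 0.066 to 0.109 and 0.107 to 0.118. In siControl replicate 2, where Mt1 was 22608, the ratio was the lowest of all libraries.

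**Figure D4:**
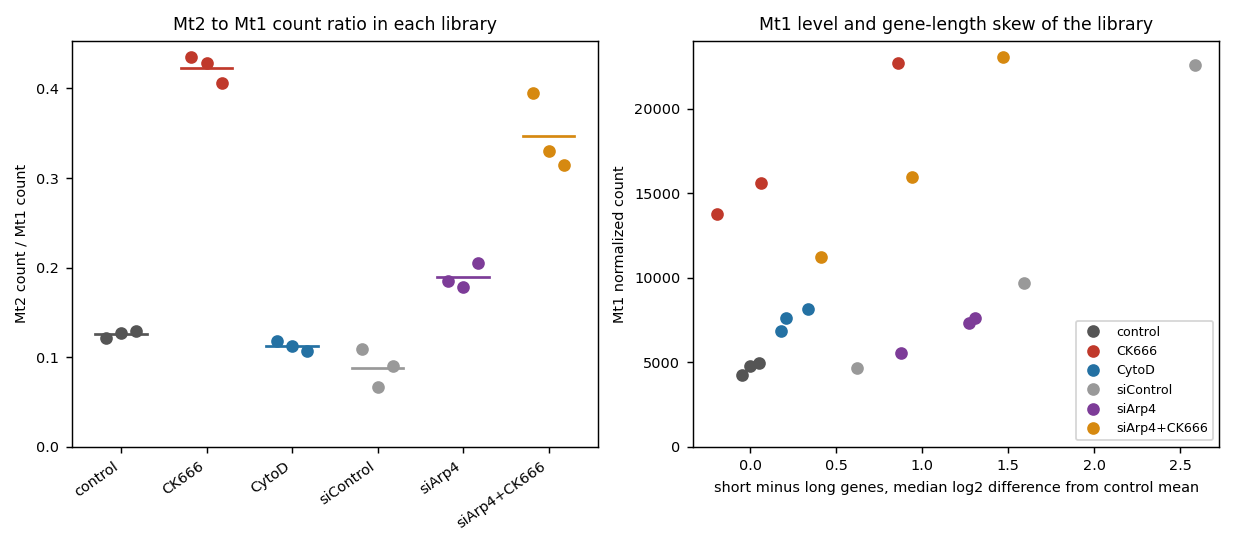
Left, Mt2 count divided by Mt1 count in each library with group means; right, Mt1 normalized count of each library, scaled over all 18, against the over-representation of short genes in it. The ratio is 0.41 to 0.43 in CK666 and 0.12 to 0.13 in control, and siControl replicate 2 lies at the far right with 22608 counts.

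The regulators of these genes were read in the same libraries. Nfe2l2, encoding NRF2, was at 2134, 2303 and 2180 in control and 3563, 3655 and 3619 in CK666, a log2 difference of 0.71 ± 0.08 (adjusted p = 4.88e-16). It was also higher in siArp4 than in siControl (log2 0.68 ± 0.16, adjusted p = 0.000107), with 3290 to 3361 against 1685 to 2261, and neither difference reached the minimum. With CytoD Nfe2l2 was at 2553, 2758 and 2871, above every control library, and in siArp4+CK666 it was at 3800, 3954 and 3693. None of the 10 NRF2 regulators listed was called with CytoD. Keap1, the inhibitor of NRF2, had log2 changes of -0.06 with CK666 and -0.48 in siArp4, and Bach1, which represses Hmox1 and other targets, 0.15 and 0.67. With CytoD Keap1 was at 1063, 1072 and 1024, below the 1280, 1194 and 1189 of control. Bach1 was at 1661, 703 and 916 in siControl, which overlapped the 1523, 1674 and 2038 of siArp4. In siArp4+CK666 Bach1 was at 3284, 2622 and 1867. Mtf1, the metal sensor that drives metallothioneins, was not called with CK666 (0.04 ± 0.24) and rose in siArp4 (1.47 ± 0.21, adjusted p = 3.66e-11). These are RNA levels, and the part of MTF1 in the metallothionein values was not tested.

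Other genes of the pathway, 51 in 6 lists, included 12 called higher and 0 called lower with CK666, of 48 that passed the filter, with a median of 0.53, beside 4.89% and 6.06% of all genes. Without CK666 replicate 1 the count was 11. The largest were Gsta3 (log2 4.59 ± 0.29) and Gsta4 (2.66 ± 0.23), glutathione transferases whose reads may be shared with close paralogs. Slc40a1, the iron exporter ferroportin, rose by 2.14 and Blvrb, a biliverdin reductase, by 1.33. Among NRF2 regulators Sqstm1, an autophagy receptor that binds KEAP1, rose by 1.84 and Nfe2l1, a relative of NRF2, by 1.45. Osgin1 (1.59) and Pgd (1.01), an NADPH-producing enzyme of the pentose phosphate pathway that was at 0.91 and not called without CK666 replicate 1, were called too, and no thioredoxin partner of the 6 listed was. Of the 8 genes for metal sensing and zinc transport, 5 passed the filter and only the zinc exporter Slc30a1 (1.26 ± 0.18) was called.

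CytoD was followed by 8 calls higher and 0 lower in the same 51 genes, with a median of 0.25, beside 4.8% and 4.32% of all genes. Gsta3 (2.36), Gsta4 (2.24) and Slc40a1 (1.71) were again among them, and the cytosolic NADP-dependent enzyme Idh1 (1.59) and the carbonyl reductase Cbr1 (1.06) were added. CytoD and CK666 share the control libraries. In siArp4 cells 2 of 49 genes that passed the filter were called higher and 5 lower, near the 6.69% and 9.49% of all genes, with 3 and 4 without siControl replicate 2, and 5 and 12 without siControl replicate 1. Those called higher were 1 thioredoxin partner and 1 detoxification gene. Among those called lower were Prdx2 (-2.45), Txn1 (-1.44), Gstm1 (-2.52) and Tkt (-1.96), at -1.61, -1.07, -1.82 and -1.41 without siControl replicate 2. The siControl libraries spread widely for these lower genes, with Prdx2 at 12281 ± 9854 (SD, n = 3) against 2249 ± 374 in siArp4, and the part of library make-up was not tested. CK666 on top of siArp4 gave 8 genes higher and 3 lower of 48, beside 1.63% and 4.12% of all genes, led by Gsta3 (3.48), Osgin1 (1.98) and Gsta4 (1.68), with Nqo2, a relative of Nqo1, lower by -1.25.

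**Figure D5:**
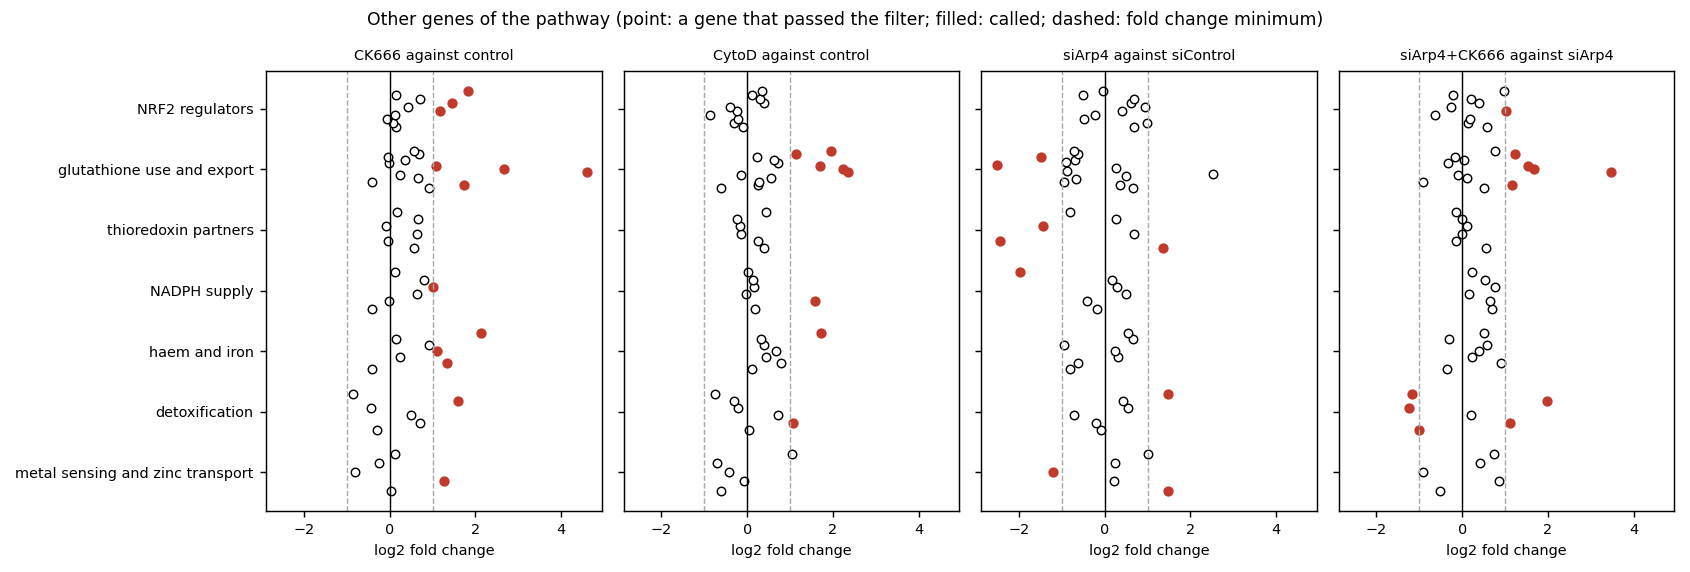
Log2 fold change of the other genes of the pathway in 4 comparisons, each point a gene that passed the filter, filled where called, with dashed lines at the minimum. With CK666 every called gene lies to the right of 0, while siArp4 has called genes on both sides.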

How the data were processed

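RNA-seq was carried out on 18 unstranded libraries of mouse MSC. The authors quantified transcripts with Salmon 1.2.1 against GENCODE vM25 (GRCm38) and deposited estimated counts per gene, unscaled. The sources at hand do not say how transcripts were summed to genes. Counts were rounded, which changed a library total by at most 277. Symbols and coordinates came from GENCODE vM21 on the same build.

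Each set of 9 libraries was fitted with group as the only term, in DESeq2 1.42.0 (R 4.3.3) by the Wald test without prior filtering. The interaction and the comparison of siControl with control were fitted on all 18. A gene was called at a Benjamini-Hochberg adjusted p below 0.01, over all genes tested, with an absolute log2 fold change over 1. Normalized counts were divided by DESeq2 size factors of the same fit, and ± is the SE of a log2 fold change or the SD of 3 libraries.

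Alternatives were edgeR 4.0.16 (quasi-likelihood), TMM size factors, a filter of 10 counts in 3 libraries, no fold change minimum, a replicate block, all 18 libraries in 1 fit and leaving out each library. Subtraction of the median change of the 500 genes nearest in exon length, and refits of the lists without CK666 replicate 1 or siControl replicates 1 or 2, were chosen after seeing the data. The 10 genes and all lists were chosen with earlier results of these data known. From other lists, at most the 2 largest called changes per list and comparison are named, with Nfe2l2, Keap1, Bach1, Mtf1 and Actl6a. The fits were tested on simulated counts. All preparations came from the same pooled primary line and not from separate animals, so p-values measure the spread between preparations of that line. Ddit3 matched more than 1 row and was left out.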

Additional observations from a re-analysis of the deposited data

Results flagged for a closer look

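Of the 10 genes, 3 differed in their CK666 response between cells with and without the Arp4 siRNA by the interaction term of DESeq2 with a log2 difference past the minimum, all lower, a direction called for 2.52% of genes (1.9% in the other). The difference was -1.04 for Hmox1, -2.05 for Nqo1 and -1.51 for Mt2 on the log2 scale. The Mt2 call was lost by edgeR and without any of 9 of the 18 libraries, and that of Hmox1 without CK666 replicate 1 or siArp4+CK666 replicate 1. Gclc (0.91) and Gsr (0.68) also differed by adjusted p, under the minimum. Nqo1 moved in opposite directions, higher with CK666 in all 3 untransfected libraries and lower in all 3 knockdown libraries. The part of transfection, of library make-up and of the already high Nqo1 level in siArp4 cells was not tested.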

How the results depend on the processing

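The count of called genes was within 1.5 times of the reported count in every comparison by edgeR, with TMM size factors, with the low-count filter, in a fit of all 18 libraries where this was another fit, with the length trend removed and with a replicate block. Without a fold change minimum, CytoD against control had 6 calls in place of 3 and the interaction 5 in place of 3. Leaving out each library gave 7 to 7 calls for CK666 against control, 2 to 3 for CytoD against control, 7 to 8 for CK666 against CytoD, 2 to 4 for siArp4 against siControl, 9 to 10 for siArp4+CK666 against siControl, 7 to 9 for siArp4+CK666 against siArp4, 1 to 4 for the interaction and 5 to 7 for siControl against control. The interaction had 1 call without CK666 replicate 1 or siArp4+CK666 replicate 1. Signs turned in values that were not called: Hmox1 under CytoD was -0.0123 with the length trend removed, Hmox1 in siArp4 was -0.0022 by edgeR and ran from -0.17 to 0.19 over left-out libraries, being -0.0096 without siArp4 replicate 1 and -0.01 without replicate 2, and Mt2 in siControl against control was -0.44 with the length trend removed. Same-numbered libraries did not deviate together throughout (r of 0.116, 0.0889 and 0.0575 between control and CK666, 0.603, -0.0672 and 0.105 between siControl and siArp4+CK666), so numbers were not taken to pair samples. With the replicate block Mt2 in the interaction was -1.53 with an adjusted p of 0.0118, and no other call changed. Other changes were Slc7a11 under CytoD by edgeR (adjusted p = 0.0112), Mt1 in CK666 against CytoD (adjusted p = 0.0105) and in siArp4+CK666 against siArp4 (adjusted p = 0.00840) in the fit of all libraries, and Txnrd1 in siArp4+CK666 against siArp4 by edgeR (adjusted p = 0.0415) and with the length trend removed (0.98). The causes were not tested. Within the first set the SE was largest for Slc7a11, at 0.25 to 0.28. In the comparisons that hold transfected cells it was largest for Mt1, at 0.40 to 0.56. Slc7a11 had as few as 16.3 normalized counts in a library.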

Other observations

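The genes whose pattern over the 18 libraries was nearest to that of each gene were sought among 9929 genes by the root mean square difference of centred log2 counts. Nearest to Slc7a11 were Chac1 (0.67), a glutathione-degrading enzyme, and Trib3 (0.79), both targets of ATF4, and to Txnrd1 the aminoacyl-tRNA synthetases Iars (0.20) and Eprs (0.25). Mt1 was nearest to Sqstm1 (0.27) and Mt2 to Slc3a2 (0.45), the heavy chain that pairs with the cystine antiporter. Hmox1 was nearest to Acot2 (0.25), Gclc to Nr1d2 (0.18), Gsr to Afg3l2 (0.18), Srxn1 to Ptx3 (0.35), Gclm to Slc6a9 (0.53) and Nqo1 to Insyn1 (0.41). The libraries share size factors, treatments and length skew, and no test was made.

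ATF4, the effector of the amino acid and stress response, also drives Slc7a11. Of 7 genes listed for it, CK666 against control had 5 called higher and 0 lower, led by Trib3 (log2 4.66 ± 0.17) and Chac1 (3.01 ± 0.16), and CytoD had 0 called higher and 6 lower, led by Chac1 (-2.15 ± 0.20) and Trib3 (-2.05 ± 0.19). Over all genes 4.89% were called higher and 6.06% lower with CK666, and 4.8% and 4.32% with CytoD. In siArp4+CK666 against siArp4, 3 were called higher, beside 1.63% of all genes, and Trib3 rose by 2.67. Of 7 glucocorticoid-responsive genes, 2 were called lower with CK666, Sgk1 (-1.51) and Per1 (-1.29), and none higher. The part of glucocorticoids in the Mt1 and Mt2 levels was not tested. Without CK666 replicate 1 the counts against control were again 5 and 0 for the ATF4 list and 0 and 2 for the glucocorticoid list. The superoxide and catalase list had 0 of 4 genes called with CK666 and 1 with CytoD, Sod3 (2.05 ± 0.53). Without CK666 replicate 1, 1 gene of that list was called higher with CK666.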
